A study of Mus musculus with 30 samples.

Results

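The wild-type rescue line was compared with its parental wild type in mouse embryonic stem cells, to see which N6-methyladenosine (m6A) calls of the parental line were called again once METTL14 had been put back into the Mettl14 knockout. The comparison took 6 of the 15 deposited lists of called m6A bins, 3 from parental wild-type cells (WT) and 3 from Mettl14 knockout cells that carry wild-type METTL14 (KO+WT). A bin is a window of 100 nt within a gene that the authors called as enriched in the m6A immunoprecipitate. The 6 lists held 45391 distinct bins in 11731 genes, of 62091 bins in 13765 genes over the 15 lists of all 5 lines. A bin or gene was counted as not rescued when it was called in all 3 WT lists and in 0 of the 3 KO+WT lists, and as new in the reverse case. It was counted as kept when all 6 lists called it, and as partly rescued when all 3 WT lists and 1 or 2 KO+WT lists called it.

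All lines are of the C57BL/6 strain and were grown with LIF and serum on gelatin. WT is the parental line, KO is the Mettl14 knockout, and KO+WT, KO+5RK and KO+13RK are the knockout with METTL14 as the wild-type protein or as 1 of 2 mutants named in the labels. The labels do not say whether a line is 1 clone, nor whether the 3 replicates of a line were separate cultures, so each p reflects no more than the scatter of these lists. The KO, KO+5RK and KO+13RK lists, which the rule did not use, served as further readouts of its classes. They come from the same knockout as KO+WT, so they are not independent of it. A missing call does not show that a transcript lacks m6A, since less RNA and less m6A per RNA cannot be told apart in these lists.

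m6A is a methyl mark placed on adenosines of messenger RNA by a complex in which METTL3 is the catalytic subunit and METTL14 the partner that holds the RNA. WTAP, VIRMA, RBM15 and other proteins anchor the complex and guide it. The complex favours adenosines in a short motif with AC at its core, and the marks gather in long exons, around stop codons and in the region after them. In embryonic stem cells m6A shortens the life of transcripts of pluripotency factors, and cells without METTL3 or METTL14 leave the naive state poorly.

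A few of the called bins begin at the start of a microRNA hairpin gene, where RefSeq sequence (build GRCm38.p6) was at hand, and they show what a kept, a not rescued and a new call look like. Each line gives 30 bases of the hairpin, 5′ to 3′, with the letters GGAC or GAAC or AGAC or AAAC in capitals. The piece surrounds the first of these motifs, or is the middle of the hairpin where none is present.
Mir1905: gauggucgcucccuuggggcccaccaccag
Mir130c: guuugugugucaaAGACucuguguccagug
Mir5131: gcgccggcggcauGAACuacccgggccgcg
Mir6409: agcgcgcaugcguGGACcagAGACaaagcu
The Mir1905 bin was called in all 6 lists, and its hairpin (chr3:88536301-88536382, minus strand) lies antisense to Mex3a. The Mir130c bin (hairpin chr9:53400805-53400886, minus strand, inside the span of Poglut3) was called in all 3 WT lists and in 1 KO+WT list. The Mir5131 bin was not rescued. Its hairpin (chr14:45657961-45658053, minus strand) lies within Ddhd1 on the same strand, so its reads cannot be told from those of Ddhd1. That bin was called again in all 3 KO+5RK lists, in 1 KO+13RK list and in 1 KO list. The Mir6409 bin was new. Its hairpin (chr10:76008926-76009017, plus strand) lies within the span of Gm5134, and the bin was also called in 2 KO+5RK and all 3 KO+13RK lists and in 0 KO lists. These calls need not come from the hairpins themselves. The motif letters were searched on the strand of the gene only. Of the 1005 mouse hairpins in the table, 24.5% hold GGAC, 19.8% GAAC, 22.8% AGAC and 17.5% AAAC. A match is a description of the letters and not a methylated site.

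Only 1 not rescued bin lay wholly within a RefSeq promoter window on its strand, and it is shown for that reason. It belongs to Bmp7, a secreted growth factor of the TGF-beta family (chr2:172939613-172939712, minus strand), and it lies in the window before the start of Gm40010. The 30 bases around its first motif were as follows, with GGAC in capitals.
Bmp7 bin: ctgcaGGACagccacttcctcactgacgcc
Of all stretches of 100 nt cut from the promoter windows, 30.6% hold GGAC. Of the 18 bins within such windows that all 3 WT lists called, 8 were kept, 9 were partly rescued and 1 was not rescued.

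Fewer bins were called in the rescue line than in the parental line. The WT lists held 23143, 22648 and 22202 bins and the KO+WT lists 14234, 17162 and 14172. The groups did not overlap, and the KO+WT lists stood 33.0% lower, at 15189 ± 1709 against 22664 ± 471 bins (mean ± SD, n = 3; two-sided exact permutation test, p = 0.1, the smallest that 3 against 3 lists allow). Genes with a call numbered 7788, 7896 and 7854 in WT and 6219, 7085 and 6317 in KO+WT, 16.6% lower in the mean. Each gene with a call also carried fewer bins, 2.89 ± 0.0749 in WT and 2.32 ± 0.0935 in KO+WT, and the share of genes with a single bin was 38.2% ± 1.39 in WT and 47.1% ± 2.06 in KO+WT (n = 3 for each). Cut to the same number of bins per list, those with the smallest p, the KO+WT lists held a mean of 195 genes more than the WT lists and not fewer, so the direction of the gene count changed with list length.

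**Figure D1:**
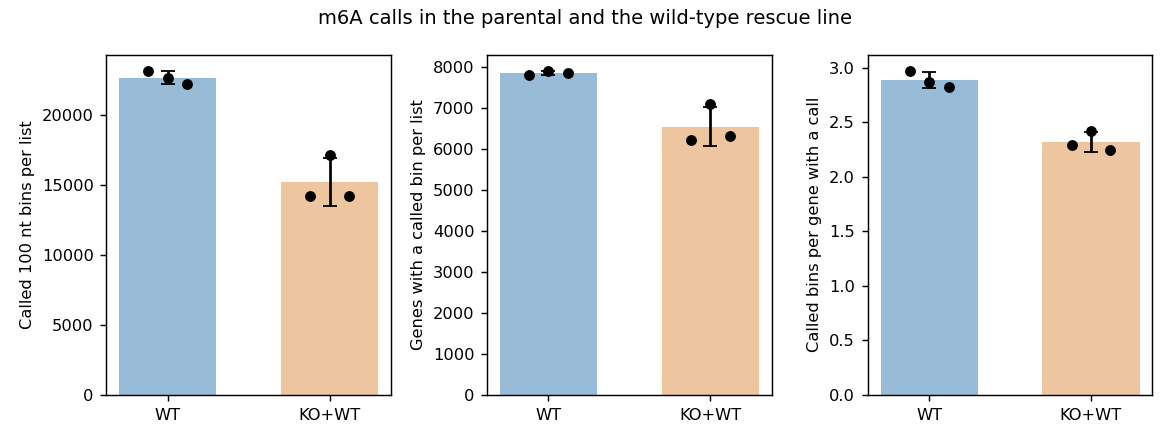
Called bins, genes with a called bin, and called bins per gene in each list of the parental (WT) and the rescue line (KO+WT). Points are the 3 lists of a line, bars their mean and error bars the SD. All 3 KO+WT points lie below all 3 WT points in each panel, and KO+WT replicate 2, with 17162 bins, stands above replicates 1 and 3.

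Most bins called throughout the parental line were seen again in at least 1 list of the rescue line. Of the 11324 bins in all 3 WT lists, 5070 (44.8%) were kept, 4523 were partly rescued and 1731 (15.3%) were not rescued. The not rescued bins were 3.81% of all bins in the 6 lists. New bins numbered 147, which is 0.324% of all bins. By the same rule, 3514 of the 5631 genes called in all 3 WT lists were kept, 1788 were partly rescued and 329 were not rescued, which is 2.8% of all genes called in the 6 lists. The 59 new genes were 0.503% of them. Calls varied within a line as well: 20033 bins, or 44.1%, were called in 1 of the 6 lists only. The Jaccard index of 2 lists (bins in both over bins in either) had a median of 0.450 within WT, 0.374 within KO+WT and 0.350 between the lines. For genes it was 0.670, 0.564 and 0.568. The index depends on the lengths of both lists.

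Not rescued bins lay in 1230 genes, of which 992 held 1 such bin. Of these genes, 591 had some call in all 3 KO+WT lists, 433 in 1 or 2 of them and 206 in none. Not rescued bins had ranked lower in the parental lists: the median within-list percentile of the authors' enrichment value was 38.1 in WT, against 43.8 for partly rescued and 52.6 for kept bins. A bin called in all 3 KO+WT lists lay within 200 nt of 19.4% of the not rescued bins and of 54.7% of the kept ones. The rule sets part of this contrast. By it all kept bins lie in genes called in all 3 KO+WT lists, against 53.9% of the not rescued bins.

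The place along the gene differed between the classes. Of the not rescued bins with a RefSeq gene span, 43.5% lay within 2000 nt of the gene end, against 35.9% of the partly rescued and 34.0% of the kept bins. The first 500 nt from the gene end held 14.9% of the not rescued and 9.59% of the kept bins, and the next 500 nt 13.6% and 8.73%. Of the new bins, 27.8% lay within 2000 nt of the gene end and 9.02% (12 of 133) within 500 nt of the gene start. Near the start lay 3.58% of the partly rescued, 3.58% of the kept and 2.60% of the not rescued bins. Over whole lists the share near the gene end was 35.2%, 34.6% and 34.4% in WT and 31.8%, 30.1% and 33.9% in KO+WT. These did not overlap (exact permutation test, p = 0.1, the smallest possible). The share near the gene start was 4.86% ± 0.586 in WT and 5.75% ± 1.63 in KO+WT (n = 3), and those lists overlapped. The difference of 0.890 percentage points was 0.0989 without KO+WT replicate 2 and 1.72 without KO+WT replicate 3.

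**Figure D2:**
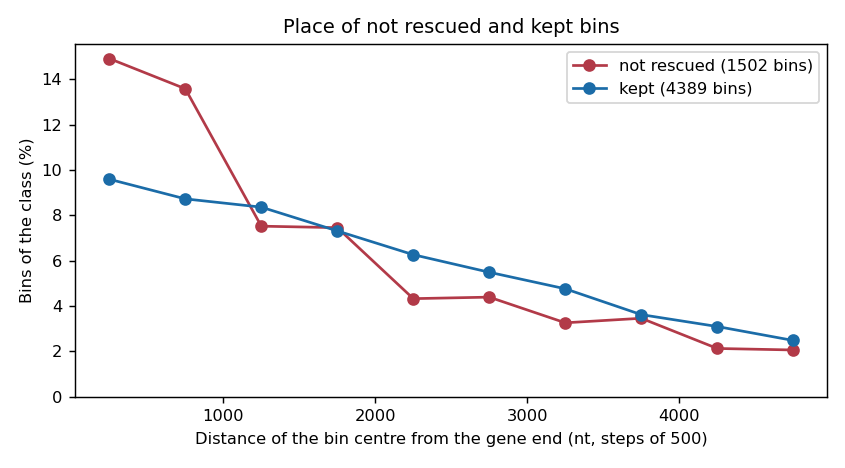
Share of the not rescued bins (1502 with a RefSeq gene span) and the kept bins (4389) in steps of 500 nt from the gene end. The classes differ in the first 1000 nt, where the not rescued bins reach 14.9% and 13.6% a step and the kept bins 9.59% and 8.73%.

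The mutant rescue lines and the knockout gave readouts of the classes that the rule had not used. Not rescued bins were called in 5.01% ± 0.339 of cases per KO list, in 14.8% ± 3.04 per KO+5RK list and in 8.45% ± 0.988 per KO+13RK list (mean ± SD, n = 3 lists). Kept bins were called in 21.4% ± 1.90, 77.4% ± 6.37 and 66.0% ± 3.16. In each line, every list called a smaller share of the not rescued bins than any list did of the kept bins. The rule chose kept bins for calls in all 6 lists, and they ranked higher in WT (median percentile 52.6 against 38.1). Bins chosen in that way can be called more often in any other list. How far this set the difference was not tested. Of the 1731 not rescued bins, 950 were in none of the 9 lists of these lines. None was called in all 6 lists of the mutant rescues, while 31 had no call in KO and a call in all 3 lists of at least 1 mutant. These included bins of Mbip, a subunit of an acetyltransferase complex, and of Pkm, the pyruvate kinase of muscle and growing cells. New bins were called in 29.5% ± 5.54 of cases per KO list, 40.6% ± 1.71 per KO+5RK list and 34.7% ± 3.12 per KO+13RK list. Of the 147 new bins, 23 were in all 3 KO lists, and 27 were in none of the 9 lists. The 23 included bins of App, the amyloid precursor protein, of Hdac6, a deacetylase of tubulin, and of Spp1, the secreted phosphoprotein osteopontin.

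**Figure D3:**
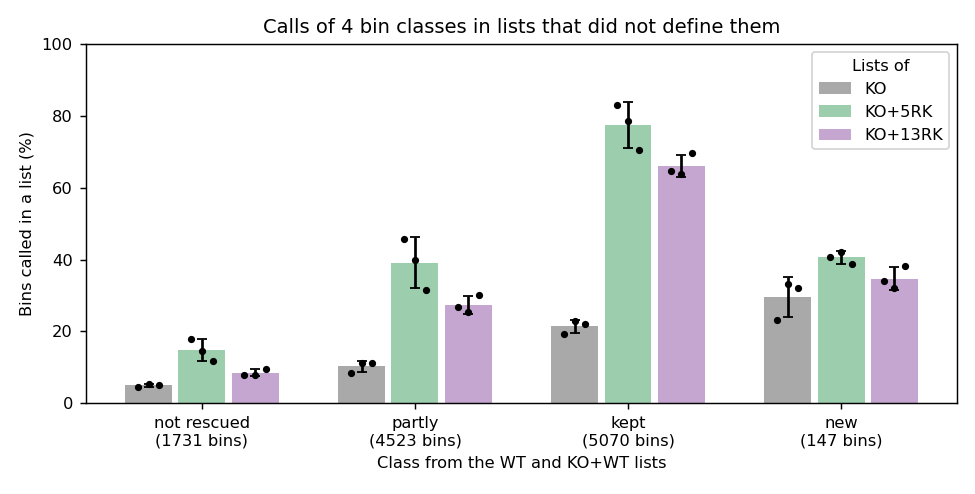
Share of the bins of each class that was called in each list of KO, KO+5RK and KO+13RK. Points are lists, bars the mean of 3 lists and error bars the SD. Kept bins reach 77.4% in KO+5RK, not rescued bins 14.8%, and new bins are called in KO at 29.5%, above the other classes.

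The strongest not rescued bins, by their mean percentile within the WT lists, ranked near the top of those lists. The bin of Mbip (chr12:56328404-56328503, minus strand, 148 nt from the gene end) stood at the percentiles 99.9, 99.3 and 97.0 of the WT lists. It was also called in all 3 KO+5RK lists and in 0 KO and 0 KO+13RK lists. A pair of bins lay at nearly the same place on chromosome 7 on opposite strands, that of 1810026B05Rik (chr7:73544104-73544203, minus strand) and that of Gm44686 (chr7:73544014-73544113, plus strand), with mean percentiles of 98.8 and 97.9. The highest, at 99.3, is listed under Gm20388 (chr8:121915642-121915741, plus strand). Gm20388 is a gene model whose bins run over 4434300 nt of chromosome 8 and through many other genes, so its bins are uncertain. It gave 773, 864 and 820 bins in WT and 506, 438 and 466 in KO+WT.

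The strongest new bins had mean percentiles from 91.4 to 93.6 in the KO+WT lists. The bin of Fam217b (chr2:178421325-178421424, plus strand) stood at the percentiles 91.4, 95.0 and 94.4. That of Ggps1 (chr13:14054150-14054249, minus strand), which encodes an enzyme of isoprenoid synthesis, stood at 95.5, 91.2 and 93.3 and was in 0 of the 9 other lists. The bin of Utp14a (chrX:48266463-48266562, plus strand), a factor of ribosome assembly, stood at 99.7, 80.8 and 98.5 and was called in 2 KO+5RK and 2 KO+13RK lists. That of 2610021A01Rik (chr7:41627631-41627730, plus strand) had a mean percentile of 91.4.

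Bins per gene were compared by limma on log2(bins + 0.5) over 5869 genes with a mean of at least 1 bin, with Benjamini-Hochberg adjustment over all of them. Bins fell in 112 genes (1.91% of those tested) and rose in 5 (0.0852%), and the median log2 difference of KO+WT from WT over all genes was -0.49. The split of these calls depended on list length: with lists of equal length 42 genes fell and 36 rose, and the median was 0. Of the 112 genes, 35 had the same number of bins in all 3 lists of each line, where a spread per gene cannot be estimated well. A spread shared by genes of like mean gave 435 falls and 14 rises, and 54 of the 112 were among those 435.

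The largest fall was in Gm47283, a gene model on chromosome Y with no RefSeq span here (bins within chrY:90811139-90814038), and therefore uncertain. Whether its reads map to this place alone was not tested. Gm47283 had 25, 25 and 24 bins in the WT lists and 0, 0 and 0 in the KO+WT lists (log2 difference -5.65 ± 0.0853 SE, adjusted p = 9.41e-05 by limma). The KO lists called 25, 23 and 23 of its bins, and all 6 mutant rescue lists called 0. The gene was thus called in both unrescued lines and in no rescue line.

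Fibronectin, the matrix protein of Fn1, had 30, 23 and 23 bins in WT and 1, 3 and 1 in KO+WT (-3.69 ± 0.388 SE, adjusted p = 0.0196 by limma). The KO lists called 0, 2 and 3 of its bins, the KO+5RK lists 1, 0 and 1 and the KO+13RK lists none, so WT stood apart from all 4 derived lines. Mki67, the proliferation marker Ki-67, had 10, 9 and 17 bins in WT and 0, 0 and 1 in KO+WT (-4.06 ± 0.541 SE, adjusted p = 0.0441 by limma), and its KO lists called none. In both genes every KO+WT list was far below every WT list. Both passed with the shared spread. With the spread per gene, each call was lost when any 1 WT list was left out and, for Mki67, also without KO+WT replicate 1 or 2. Both calls were lost with lists of equal length, where the differences were -2.74 and -2.77.

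The other genes with the largest falls were not rescued at all. Sfi1, a centrosome protein gene with near-identical copies in the mouse genome and therefore uncertain, had 9 bins in each WT list and 0 in each KO+WT list. Smyd3, a lysine methyltransferase, had 9, 6 and 5 WT bins. Magi3, a scaffold protein of cell junctions, had 5, 4 and 7, and no list of the other 4 lines called it. Lrrfip1 had 7, 3 and 5 WT bins, Cdk19, a kinase of the Mediator complex, 6, 4 and 4, and Aim2, a sensor of cytosolic DNA, 3, 5 and 4. Zfp799, a zinc finger gene, had 7, 4 and 2. All 7 had 0 bins in every KO+WT list, with log2 differences from -4.25 for Sfi1 to -3.13 for Zfp799. The call for Zfp799 was lost in 5 of the 6 fits that left out 1 list, and that for Lrrfip1 without WT replicate 3. Pola2, a subunit of DNA polymerase alpha, and Eif4g3, a translation initiation factor, were also not rescued (8, 5 and 2, and 7, 1 and 5 WT bins), but missed the threshold (adjusted p = 0.0501 and 0.0989 by limma).

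**Figure D4:**
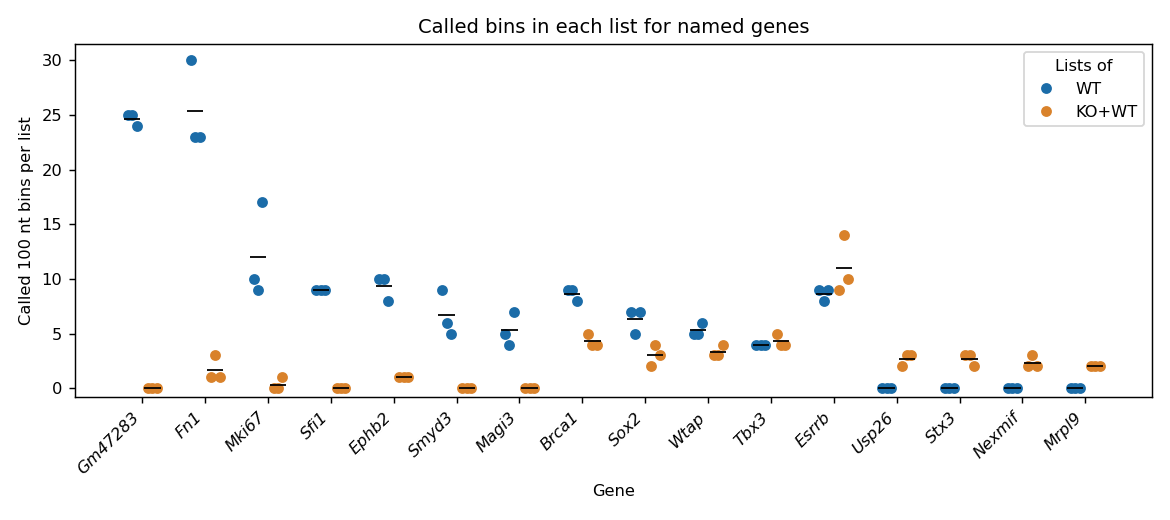
Called bins in each WT and KO+WT list for 16 named genes. Points are lists and short lines the mean of 3 lists. Gm47283 and Fn1 have more than 20 bins in each WT list and at most 3 in any KO+WT list, while Usp26, Stx3, Nexmif and Mrpl9 have none in WT and 2 or 3 in each KO+WT list.

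The 5 rises were small numbers of bins. Usp26, a deubiquitinase gene on chromosome X, had 0 bins in every WT list and 2, 3 and 3 in KO+WT. Stx3, a syntaxin of membrane fusion, had 0 and then 3, 3 and 2. Nexmif, also on chromosome X, had 0 and then 2, 3 and 2 (adjusted p = 0.0067 for each of the 3 by limma). Mrpl9 and Mrps2, proteins of the mitochondrial ribosome, had 2 bins in each KO+WT list, against 0 and 1 in each WT list. Neither of these, nor Nexmif, passed with the shared spread, and Mrps2 did not pass when any 1 WT list was left out. None of the 3 KO lists called Usp26 or Stx3.

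Of the other new genes, Zfp980 had 2, 9 and 2 bins in KO+WT, App 4, 3 and 1, Ubl4a 3, 4 and 1, and Scrib, a cell polarity protein, 1, 1 and 5, all with 0 in WT. The bins of Ubl4a lie outside its RefSeq span, over Slc10a3, and are uncertain. C1rl, Dut and Galnt3 had 6 bins each over the 3 KO+WT lists. None of these 7 passed the threshold, with adjusted p from 0.0524 to 0.135 by limma.

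The X chromosome did not share in the lower number of calls. It had 401, 391 and 388 bins in WT and 410, 475 and 399 in KO+WT, a ratio of 1.09, whereas the ratio on the 19 autosomes ran from 0.533 on chromosome 14 to 0.727 on chromosome 7, with a median of 0.688. As a share of a list, X held 1.73% to 1.75% of the bins in WT and 2.77% to 2.88% in KO+WT, without overlap (exact permutation test, p = 0.1, the smallest possible). The KO lists, at 3.33% to 3.42%, and the lists of both mutants, from 2.60% to 3.12%, also lay above WT, so the parental line was the one that stood apart. Of the 147 new bins 22 were on X, as were Usp26 and Nexmif among the 5 genes that rose. On X 2 tested genes also fell (1.48%), beside 1.91% of all genes. Chromosome M, with few bins, also had a ratio above 1 (1.13), with 24, 24 and 34 bins in WT and 23, 35 and 35 in KO+WT. Its share was 0.104% to 0.153% in WT and 0.162% to 0.247% in KO+WT. Among the 135 genes on X that were tested, 12 had more bins in every KO+WT list than in any WT list, or 8.89%, against at most 2.48% on an autosome. Huwe1, a ubiquitin ligase on X chosen after its values were seen, had 12, 16 and 17 bins in WT and 30, 26 and 24 in KO+WT, and missed the threshold (adjusted p = 0.0854 by limma). Expression and copy number of these chromosomes were not analysed here, and their part in these shares was not tested.

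Chromosomes 14, 1 and 8 lay at the other end, with ratios of 0.533, 0.555 and 0.584. Of the bins called in all 3 WT lists, 20.0% on chromosome 1, 19.6% on chromosome 14 and 19.2% on chromosome 10 were not rescued. The share was 16.6% on chromosome 8, and the median over the autosomes was 14.1%. Chromosome 14 had 0 new bins, chromosome 1 had 1 and chromosome 10 had 2. As a share of the bins called in all 3 KO+WT lists, these were 0%, 0.243% and 0.851%, beside 2.37% over all chromosomes. The share was as low as on chromosome 10 on chromosomes 8 (0.509%), 17 (0.822%) and 15 (0.855%). The median log2 difference in bins per gene was -0.77 over the 219 tested genes of chromosome 14 and -0.69 over the 378 of chromosome 1. It was -0.63 over the 282 of chromosome 10 and -0.08 over the 135 of X. Falls numbered 19 on chromosome 1 (5.03%), 12 on chromosome 10 (4.26%) and 5 on chromosome 14 (2.28%), where 1.91% of all genes fell. Much of the count on chromosome 8 is the uncertain model Gm20388, whose own ratio of 0.574 was close to the 0.584 of the whole chromosome.

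**Figure D5:**
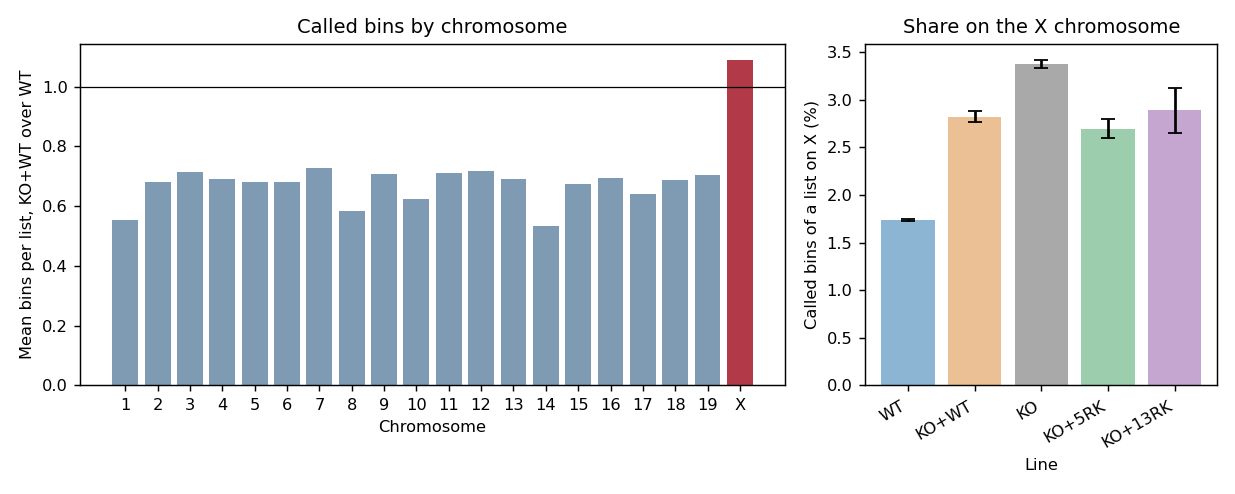
Left, the mean number of called bins per KO+WT list over that per WT list for each autosome and X. Right, the share of a list's bins on X in each line, as the mean of 3 lists with the lowest and highest list. X stands at 1.09 and every autosome at or below 0.727, and WT has the lowest share on X.

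Most genes of the pluripotent state were called in both lines. Of the 35 genes of the naive and general pluripotency list 32 had a call, 27 were called in all 3 WT lists and 23 of these were kept, where the share over all genes was 62.4%. Any 1 bin in each list makes a gene kept, so genes with many bins can be kept more easily. The shares of kept genes, here and in the lists below, were not adjusted for bins per gene. None was not rescued, new or past the threshold, where 1.91% of all genes fell, and the median log2 difference of the 28 tested was -0.11, beside -0.49 over all genes. Bins of the list summed to between 161 and 174 in WT and between 128 and 153 in KO+WT. Nanog and Klf2, both transcription factors of the naive state, had 2 bins in every list of both lines. The KO lists called 4, 2 and 4 bins of Nanog and 0, 1 and 1 of Klf2. Tbx3, another of these, had 4, 4 and 4 bins in WT and 5, 4 and 4 in KO+WT, while the KO lists called none. Esrrb, a nuclear receptor of naive cells, had 9, 8 and 9 bins in WT, 9, 14 and 10 in KO+WT and 11, 9 and 8 in KO. Since the knockout also called Nanog and Esrrb, their like counts in WT and KO+WT do not show a rescue. Fgf4, the growth factor that drives exit from the naive state, had 2, 4 and 4 and then 3, 4 and 3, with none in KO. For Tbx3 and Fgf4 the rescue lists overlapped or matched the parental ones where the knockout lists were empty.

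Sox2 had 7, 5 and 7 bins in WT and 2, 4 and 3 in KO+WT, with no overlap (log2 difference -0.99 ± 0.268 SE, adjusted p = 0.139 by limma). With lists of equal length its difference was -0.12. The KO lists called 3, 0 and 2 bins of Sox2, which overlapped KO+WT. Of the 5869 genes tested, 924 had more bins in every WT list than in any KO+WT list. Klf4 had 2, 1 and 3 and then 1, 2 and 2. Pou5f1, the gene of OCT4, had no called bin in any of the 6 lists, and Dppa3 had none in WT and 2, 1 and 0 in KO+WT. Myc, the growth regulator, had 0, 1 and 0 bins in WT and 2, 2 and 1 in KO+WT (adjusted p = 0.205 by limma).

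Most genes of the m6A machinery had a call in the 6 lists, 11 of 12 writers and 15 of 16 readers and erasers. Mettl14 had no bin in any WT, KO+WT or KO list, so the lists do not check which cells carry it. Mettl3 had none in WT and 1 bin in 1 KO+WT list. Wtap had 5, 5 and 6 bins in WT and 3, 3 and 4 in KO+WT, and 1, 0 and 0 in KO (log2 difference -0.61 ± 0.150 SE, adjusted p = 0.119 by limma). Mettl16, the methyltransferase of the Mat2a hairpins, had 3 in each WT list and 2, 3 and 1 in KO+WT. Mat2a, its target and the enzyme that makes S-adenosylmethionine, had 6, 5 and 7 and then 5, 6 and 4. Of the 12 genes of the writer complex list 8 were tested, and of the 16 readers and erasers 12. None in either list passed the threshold, with medians of -0.59 and -0.41 beside -0.49 over all genes. All 8 tested genes of the writer list were below 0, as most tested genes were (5.48% to 24.8% were above 0 on each autosome). The bins of the writer list summed to between 27 and 28 in WT and between 12 and 20 in KO+WT. Those of the readers and erasers summed to between 54 and 59 and between 41 and 56, with overlap. Of the genes called in all 3 WT lists, 3 of 5 writers and 9 of 12 readers and erasers were kept, where the share over all genes was 62.4%.

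The DNA repair genes, which the title of the series points to, had fewer bins in the rescue lists, as genes did in general. Of the 60 genes of the crosslink repair and homologous recombination list 42 were tested, 1 fell and none rose, near the 1.91% that fell over all genes. Their median was -0.35, beside -0.49 over all genes. Their bins summed to between 161 and 170 in WT and between 102 and 125 in KO+WT. The gene that fell was Brca1, which repairs breaks by recombination, with 9, 9 and 8 bins in WT and 5, 4 and 4 in KO+WT (-0.93 ± 0.119 SE, adjusted p = 0.0403 by limma). With lists of equal length its difference was -0.18 and it did not pass, nor did it in 5 of the 6 fits that left out 1 list. Fancm, a helicase of the crosslink pathway, had 4, 5 and 8 and then 8, 4 and 4, while the KO lists called none.

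Among chromatin genes, 2 of the 53 tested in the histone methylation and Polycomb list fell and none rose, where 1.91% of all genes fell. The median was -0.28, beside -0.49 over all genes. Ash1l, a methyltransferase of histone H3, had 6, 10 and 8 bins in WT and 1, 1 and 2 in KO+WT (adjusted p = 0.0438 by limma). Prdm2, of the same enzyme class, had 6, 6 and 7 and then 2, 2 and 3 (adjusted p = 0.0461 by limma). Of the 50 genes of the list called in all 3 WT lists, 46 were kept, where the share over all genes was 62.4%. The 2 shares are not like for like. In each WT list 55 genes of the list held 273 to 294 bins, where genes with a call held 2.89 bins each in general.

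In the signalling, adhesion, imprinted, noncoding RNA and ribosomal protein lists no tested gene passed the threshold, where 1.91% of all genes fell, 62.4% of those called in all 3 WT lists were kept and the median was -0.49. In the list of TGF-beta, FGF, Wnt and LIF signalling none of 40 tested genes passed (median -0.59), and Tcf7l2, a transcription factor of Wnt signalling, was not rescued with 1 bin in each WT list. In the actin and adhesion list none of 24 passed (median -0.79, with 20 below 0 and 4 above), and 11 of the 22 genes called in all 3 WT lists were kept. Most tested genes were below 0 in general, with 5.48% to 24.8% above 0 on each autosome. Fgfr2 was left out of the lists, since its 274 bins lie outside its RefSeq span. None of the 20 imprinted genes tested (median -0.45), of the 18 long noncoding RNAs (-0.22) or of the 19 cytosolic ribosomal protein genes (-0.12) passed. Meg3, an imprinted noncoding RNA, had 3 bins in each WT list, 2, 2 and 5 in KO+WT, and none in KO. The ribosomal protein gene Rpsa was new, with 1 bin in each KO+WT list.

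Markers of other cell types were read from their bins, which need the RNA to be present. Over all genes, 62.4% of those called in all 3 WT lists were kept. Of all genes tested, 1.91% fell, and the median log2 difference was -0.49. In the fibroblast and matrix list 11 of 34 genes had a call, and its bins summed to between 30 and 39 in WT and between 5 and 6 in KO+WT. Fn1 gave most of these. Of the 4 genes of the list called in all 3 WT lists 3 were kept. Sparc, a matrix protein that the endoderm list also holds, had 2, 2 and 3 bins in WT and 3, 1 and 1 in KO+WT, and Vim, the gene of vimentin, had 0, 1 and 1 and then 0, 0 and 2. Pdgfrb, a receptor of mesenchymal cells, was not rescued, with 2, 1 and 1 bins in WT. Col1a1 had 1, 0 and 1 bins in WT and none in KO+WT, and Thy1 had 1 bin in 1 KO+WT list. The extraembryonic endoderm list had calls in 11 of 26 genes, with between 19 and 25 bins in WT and between 12 and 16 in KO+WT, and none of its 7 tested genes passed (median -0.49). Of its defining factors, Gata4 had 1 bin in 1 WT list. The primed list had calls in 11 of 18 genes and 4 tested (median -0.64), with between 11 and 13 bins in WT and between 8 and 11 in KO+WT. The trophoblast list had calls in 9 of 18 genes and 3 tested (median -1.06), with between 10 and 15 and between 4 and 14 bins. In the mesoderm and neuroectoderm list 6 of 25 genes had a call, and Id1, an inhibitor of helix-loop-helix factors, was not rescued with 1 bin in each WT list. The germline list had calls in 10 of 32 genes, and the list of the 2-cell-like state in 2 of 20, with no WT call. The part of other cells in the fall of Fn1 was not tested.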

How the data were processed

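m6A was measured by immunoprecipitation with an m6A antibody and stranded sequencing, per the labels' protocols. STAR 2.5.3a, kallisto 0.43.0 and GRCm38 are listed, with no roles, per the submitters' processing notes, and no peak caller is named there or in the labels. The authors deposited 1 list of bins per immunoprecipitated library, with a score (an enrichment value from 0.31 to 5.82 whose scale is not stated), a p-value and a q-value per bin, all q under 0.05. The score only ranked or filtered bins within the authors' lists. Read depth per bin is unknown, so no counting interval is given. Deposited starts are printed plus 1, and may be off by 1 nt, since some equal an annotated gene start.

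The members and gene lists were chosen with earlier results of these data known. Genes were named by a rule: 19 always, up to 4 not rescued and 4 new per list, the 10 not rescued and 10 new genes with most bins, the 10 largest falls and rises, and the 4 strongest not rescued and new bins. Not every gene that the rule takes is reported here. Others were chosen after their values were seen, among them Col1a1, Sparc, Vim, Thy1, Gata4, Ash1l and Prdm2. Symbols matched 99.7% of 13765 genes, and places along genes used RefSeq spans of GRCm38.p6. Bins per gene were tested with limma (pseudocount 0.5, mean of at least 1 bin, adjusted p 0.05), version 3.58.1 in R 4.3.3, checked on simulated lists. Alternatives were a q of 0.005, an enrichment value of at least 1.4, each list left out, the replicate number as a block, equal list length, 2 or 3 lists, merged regions, protein-coding genes, a pseudocount of 1, no filter and a distance of 1000 nt. Input RNA levels were not used here.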

Additional observations from a re-analysis of the deposited data

How the results depend on the processing

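The lower number of bins per list in KO+WT, and the shares near the gene start and end, kept their direction under all alternatives run, though the difference near the start ran from 0.0989 to 1.72 points with 1 list left out. The number of genes with a call reversed with lists of equal length (195 more genes in KO+WT). The counts by the rule moved with the settings. Not rescued and new bins numbered 661 and 352 with equal list length, 5376 and 1003 when 2 or 3 lists sufficed, and 809 and 87 when no bin of the gene within 200 nt was called in the other line, an alternative chosen after seeing the data. Not rescued bins numbered 862, and new bins 56, at an enrichment value of at least 1.4, and new bins 60 at a q of 0.005. Not rescued and new genes numbered 160 and 149 with equal list length and 877 and 299 when 2 or 3 lists sufficed, and new genes 34 at a q of 0.005. Leaving out 1 list, which eases the rule, gave 2286 to 3066 not rescued and 232 to 491 new bins, and 485 to 615 not rescued and 98 to 158 new genes.

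For bins per gene, falls and rises numbered 42 and 36 with equal list length, 360 and 52 with no filter, and 65 and 0 at the higher enrichment value, where 700 and 32 passed an unadjusted p of 0.05. Leaving out 1 list gave 84 to 261 falls, most without KO+WT replicate 2, and 5 to 23 rises. With the replicate block limma called 0 and 0, with 1033 and 80 at an unadjusted p of 0.05. Deviations of same-numbered lists correlated at -0.0027 to 0.013 over genes, and those of differently numbered lists at -0.031 to 0.022. With few bins per gene and 3 lists per line, these values cannot tell whether a replicate number marks a shared batch. Of the alternatives chosen after seeing the data, the shared spread gave 435 and 14, the shared spread with equal list length 100 and 35, and leaving out genes with the same number in all lists of each line 77 and 3. The cause of these moves was not tested. Read depth per list is unknown, so differences in depth and in m6A cannot be told apart. For the single genes named by the rule, no called difference reversed under these settings, while 59 values lost and 16 gained the threshold, out of 487.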
